A study of Mus musculus with 4 samples.

Results

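Metabotropic glutamate receptors are G protein-coupled receptors for glutamate. The 6 genes of the family described here, Grm2, Grm3, Grm4, Grm5, Grm7 and Grm8, were chosen by family membership. The choice was made with earlier results of these data known. All 6 were found among the 12700 genes of the count table. They were sorted by coupling class. Grm5 represents group I, Grm2 and Grm3 group II, and Grm4, Grm7 and Grm8 group III. Other genes of the family were not analysed here.

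The RNA came from 9 month old C57BL/6 mice, either knocked out for Ids (Ids-ko, genotype Ids-/-) or wild type (wt). Ids encodes iduronate 2-sulfatase, the lysosomal enzyme whose loss causes mucopolysaccharidosis type II (Hunter syndrome). Each condition is 1 SOLiD library made from RNA pooled from 7 mice, so nothing measures the spread between animals. The library labels are CxH for cerebral cortex from Ids-ko mice, CxWT for cerebral cortex from wt mice, MH for midbrain/diencephalon/hippocampus from Ids-ko mice and MWT for that second area from wt mice; per the study's methods, the second area also held the striatum. The labels list no treatment in any group. By the study's methods both areas were dissected from each brain, so libraries with the same genotype label share animals if the labels hold. With 1 library per condition no difference between conditions was tested. Every error below is a counting error, and a gene is said to pass the fold when its log2 ratio between 2 libraries is 0.7 or more in size.

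The labels were checked first. Levels are given as RPM, reads per 1000000 aligned reads of the library. Ids was at 135 RPM in the library labelled CxH against 354 in CxWT, and at 368 in MH against 155 in MWT. Its log2 ratio was -1.39 for CxH vs. CxWT but 1.24 for MH vs. MWT, since MH was near CxWT and MWT near CxH. Both the library labelled MH and the library labelled MWT thus go against their genotype labels in this gene. The table counts reads over the whole gene, so reads from any exon outside the deleted part would count too. Area markers did not follow the area labels either. The 15 cortical excitatory neuron markers summed to 2104 RPM in CxH and 1943 in MH, but to 509 in CxWT and 455 in MWT. The 16 of 20 midbrain and diencephalon markers in the table summed to 49.9 RPM in CxH and 66.3 in MH, against 654 in CxWT and 577 in MWT, with 6 of them at 3 reads or fewer in CxH and 3 in MH, 1 of these at 0. The 6 of 9 hippocampal markers in the table summed to 508 RPM in CxH and 491 in MH, against 192 in CxWT and 147 in MWT, and the 9 striatal markers to 1210 and 1031 against 487 and 475. Most of the hippocampal sum in CxH came from Mpped1 (243 RPM) and Itpka (121 RPM), both also expressed in cortex, and for CxH vs. CxWT 2 of the 6 were higher past the fold and 1 lower. In MH these genes were at 207 and 129 RPM. By its markers CxWT was thus low in cortical genes for its label, MH was low in midbrain and diencephalon genes but not in the sums of hippocampal or striatal ones, and MWT had the lowest sums of both. These hippocampal and striatal sums were no lower in CxH, labelled cortex, than in MH, so they do not show the area label of MH. The area markers paired CxH with MH and CxWT with MWT, whereas Ids paired CxH with MWT (log2 ratio -0.20) and MH with CxWT (0.058). A correction for transcript GC content and length, described below, gave Ids -1.01 for CxH vs. CxWT, 1.52 for MH vs. MWT, 0.36 for CxH vs. MWT, where the sign turned, and 0.15 for MH vs. CxWT. For this reason all 6 pairs of libraries are given below and the libraries are named by their labels only. Of these measures, CxH vs. CxWT and MH vs. MWT differed in both Ids and the area markers, CxH vs. MH and CxWT vs. MWT far more in Ids, and CxH vs. MWT and MH vs. CxWT far more in the area markers. In CxH vs. CxWT and MH vs. MWT genotype and tissue composition cannot be told apart. In bulk tissue, fewer cells of a type and less RNA per cell cannot be told apart either.

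Group I receptors couple to Gq and activate phospholipase C, which releases calcium from internal stores and activates protein kinase C. Group II and group III receptors couple to Gi/o and inhibit adenylate cyclase, and many of them sit on presynaptic terminals, where they reduce transmitter release. In the adult brain Grm5 is mainly a postsynaptic receptor of forebrain neurons, Grm2 a presynaptic autoreceptor, and Grm3 is made by neurons and astrocytes. Grm4, Grm7 and Grm8 are presynaptic, and Grm7 is the receptor of the family with the lowest affinity for glutamate.

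In the NCBIM37 (mm9) build with GENCODE vM1 genes, Grm2 lies on chromosome 9 from 106546868 to 106558440 on the minus strand, Grm3 on chromosome 5 from 9485236 to 9725352 on the minus strand, and Grm4 on chromosome 17 from 27559332 to 27650286 on the minus strand. Grm5 lies on chromosome 7 from 94750952 to 95283417 on the plus strand. Grm7 and Grm8 share chromosome 6, Grm7 from 110595575 to 111517224 on the plus strand and Grm8 from 27225121 to 28085178 on the minus strand. The longest protein-coding transcripts differ in base composition. Those of Grm2 and Grm4 held 59.9% and 61.4% G or C, above 94.2% and 97.1% of genes, and that of Grm5 held 41.9%, above 8.64% of genes. The transcripts of Grm3, Grm7 and Grm8 held 46.7%, 47.2% and 45.9%.

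RefSeq promoter windows were given for 4 of the 6 genes, Grm2, Grm3, Grm7 and Grm8. The 250 bases before the start site are shown for Grm2 and Grm3, which make up group II and lay on the same side of 0 in 5 of the 6 pairs described below, and for the first start site of Grm8, a group III gene that lay on the other side in each of those 5. Capitals mark the GC box GGGCGG, searched on both strands as GGGCGG or CCGCCC.
Grm2, chr9:106656110-106656359, minus strand: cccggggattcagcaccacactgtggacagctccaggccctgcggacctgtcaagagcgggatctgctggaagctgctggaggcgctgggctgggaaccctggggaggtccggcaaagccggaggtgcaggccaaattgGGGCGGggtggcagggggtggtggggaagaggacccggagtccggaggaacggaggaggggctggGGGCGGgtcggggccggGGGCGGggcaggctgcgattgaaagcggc
Grm3, chr5:9725353-9725602, minus strand: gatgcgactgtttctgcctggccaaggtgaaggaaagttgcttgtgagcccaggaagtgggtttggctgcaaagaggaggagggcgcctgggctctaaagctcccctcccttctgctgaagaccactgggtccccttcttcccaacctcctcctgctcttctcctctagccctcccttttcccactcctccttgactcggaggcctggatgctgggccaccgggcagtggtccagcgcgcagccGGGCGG
Grm8, chr6:28135147-28135396, minus strand: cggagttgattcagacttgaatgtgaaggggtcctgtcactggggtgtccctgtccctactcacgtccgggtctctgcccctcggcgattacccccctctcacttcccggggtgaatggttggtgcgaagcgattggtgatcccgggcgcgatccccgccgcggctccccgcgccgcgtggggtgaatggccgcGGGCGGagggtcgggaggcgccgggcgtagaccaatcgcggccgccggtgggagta
The coordinates are those of GRCm38.p6. The Grm2 window held 3 copies of the GC box, 16 CpG dinucleotides and 71.2% G or C. The Grm3 window held 1 copy, 8 CpG and 62.4%, and the Grm8 window shown 1 copy, 29 CpG and 68.4%. The windows of Grm8 start sites 2 and 3, not shown, held 0 copies each, 8 and 2 CpG, and 54.4% and 43.6% G or C. Among 32851 windows of the same length, 32.7% held the letters on either strand, and the median window had 52.4% G or C. A match of letters is a description and not a binding site.

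All 6 genes were expressed well above the level that 3 reads give, which was 0.0779 to 0.104 RPM in libraries with 16380080 to 23475080 reads on genes. Levels of different genes were compared as RPM per kilobase of the longest protein-coding transcript. Grm3 was the highest of the 6 in every library, at 31.2 RPM per kb in CxH, 32.4 in MH, 21.1 in CxWT and 19.2 in MWT. Grm5 came next, at 19.0, 24.8, 18.4 and 17.4 RPM per kb in the same order of libraries. Grm7 was the third in every library, between 10.4 and 12.8 RPM per kb, but in CxH the 95% counting intervals of Grm7 (9.94 to 10.9) and Grm2 (9.01 to 10.1) overlapped. With the length taken over all annotated exons, Grm2 stood above Grm7 in CxH, at 9.54 against 7.46 RPM per kb, and Grm8 fell below Grm4 in MWT, at 1.91 against 2.96. Grm2, Grm4 and Grm8 filled the lower ranks, between 2.27 and 9.54 RPM per kb. Grm4 and Grm2 overlapped in CxWT (6.16 and 5.47 RPM per kb), Grm4 and Grm8 in MH (3.04 and 2.60), and in MWT Grm8 at 3.88 overlapped with both Grm2 at 4.16 and Grm4 at 3.46.

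**Figure D1:**
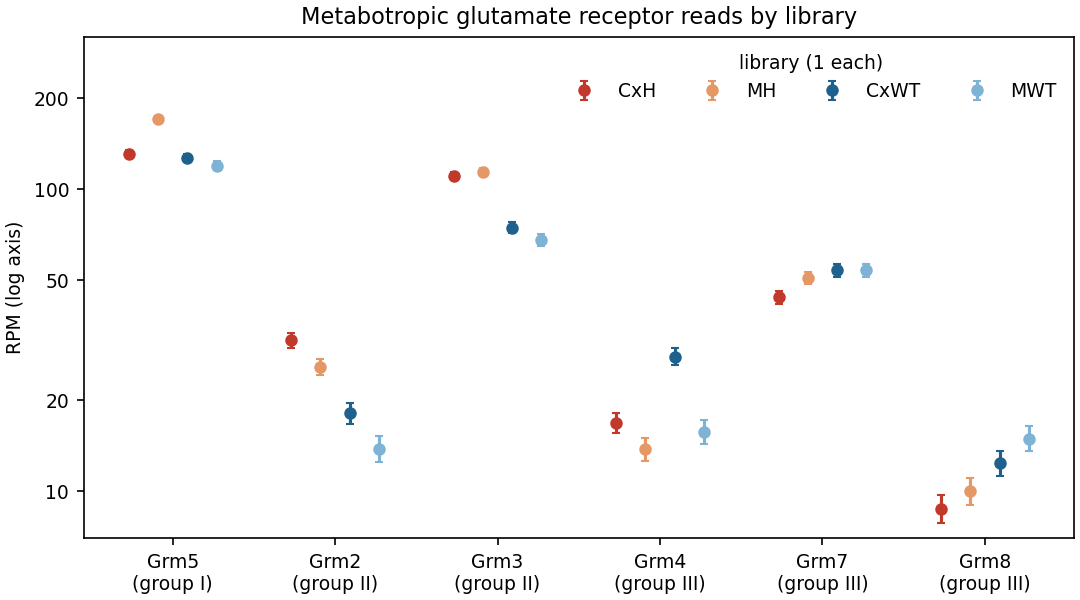
Level of each receptor gene in the 4 libraries, in RPM on a log axis, with bars for the 95% exact binomial interval of counting error. Grm2 and Grm3 sit higher in CxH and MH than in CxWT and MWT, Grm8 lower, and Grm4 is highest in CxWT at 27.9 RPM.

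Grm2 and Grm3, the group II receptors, were higher in the libraries labelled Ids-ko, CxH and MH, which are also those with more cortical markers. Grm2 had 1219 reads in CxH against 611 in CxWT, and 964 in MH against 400 in MWT, or 31.7, 18.2, 25.8 and 13.8 RPM. The 2 libraries labelled Ids-ko did not overlap with the wt ones. Its log2 ratio was 0.80 ± 0.072 (counting SE) for CxH vs. CxWT and 0.90 ± 0.086 for MH vs. MWT, past the fold in both. A correction for transcript GC content and length, fitted over all well-covered genes, brought these to 0.50 and 0.29, below the fold. Grm3 had 4251 reads in CxH against 2513 in CxWT, and 4277 in MH against 1970 in MWT, or 110.4, 74.8, 114 and 68.1 RPM. CxH and MH were again the 2 high libraries and lay close together. The log2 ratio of Grm3 was 0.56 ± 0.036 for CxH vs. CxWT and 0.75 ± 0.039 for MH vs. MWT, of which only the second passed the fold. With the GC and length correction both passed it, at 0.72 and 0.91, and with column totals as the scaling neither did, MH vs. MWT then being at 0.69.

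Astrocytes are a source of Grm3 RNA, and the sum of their 12 markers had another order of libraries. They summed to 4417 RPM in CxH against 3458 in CxWT, and 3577 in MH against 4163 in MWT, and their median log2 ratio was 0.093 for CxH vs. CxWT and -0.33 for MH vs. MWT. Of the 3 most abundant, Slc1a2 (GLT-1), the main astrocyte glutamate transporter, was also higher in CxH and MH than in CxWT and MWT, with 1533 RPM in CxH against 859 in CxWT, and 1339.8 in MH against 997 in MWT. Aldoc, a glycolytic enzyme of astrocytes, had 911, 794, 663 and 938 RPM in the order CxH, CxWT, MH and MWT, and Gfap, a filament protein raised in reactive astrocytes, 603, 280.1, 253 and 555 RPM. Of the 12 markers, 4 lay on the same side of 0 as Grm3 in both pairs, Slc1a2, Slc1a3, Aldh1l1 and Sox9. The cortical excitatory markers were likewise higher in CxH and MH, with median log2 ratios of 2.36 for CxH vs. CxWT and 2.44 for MH vs. MWT, and their part in the ratios of these receptors was not tested.

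Group III gave lower or level values in the libraries labelled Ids-ko. Grm4, the group III member with the largest ratio, had 650 reads in CxH against 939 in CxWT, and 516 in MH against 455 in MWT, or 16.9, 27.9, 13.8 and 15.7 RPM. CxWT stood above the other libraries, which lay between 13.8 and 16.9 RPM. The log2 ratio of Grm4 was -0.73 ± 0.074 for CxH vs. CxWT, past the fold, and -0.19 ± 0.093 for MH vs. MWT. The GC and length correction moved the second value far more than the first, to -1.07 and -0.999, both past the fold. The direction in MH vs. MWT was lower under every scaling tried, but its size depended on that correction. With TMM or DESeq2 size factors Grm4 no longer passed the fold for CxH vs. CxWT, at -0.63 and -0.64.

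Grm8 had 337 reads in CxH against 416 in CxWT, and 374 in MH against 433 in MWT, or 8.75, 12.4, 10.01 and 15.0 RPM, the lowest RPM of the 6 genes in every library but MWT, where Grm2 was lower. Both libraries labelled Ids-ko were below both wt libraries. The log2 ratio was -0.50 ± 0.11 for CxH vs. CxWT and -0.58 ± 0.10 for MH vs. MWT, short of the fold in both, with corrected values of -0.31 and -0.41. Grm7 had 1691 reads in CxH against 1812 in CxWT, and 1903 in MH against 1563 in MWT, or 43.9, 53.9, 50.9 and 54.0 RPM. Only CxH stood apart, below the others. Its log2 ratio was -0.30 ± 0.049 for CxH vs. CxWT and -0.084 ± 0.049 for MH vs. MWT, the second less than 2 counting SEs from 0. Corrected for GC and length, the Grm7 values were -0.16 and -0.00064.

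Grm5, the group I receptor, had 5047 reads in CxH against 4275 in CxWT, and 6379 in MH against 3466 in MWT, or 131, 127, 171 and 119.7 RPM. MH was the high library and the other libraries lay close together. The log2 ratio was 0.044 ± 0.030 for CxH vs. CxWT and 0.51 ± 0.030 for MH vs. MWT, neither past the fold. Corrected for GC and length, these were 0.39 and 0.69. Grm5 has the lowest GC content of the 6 transcripts, and across 10706 well-covered genes the log2 ratio was higher at higher GC content in both pairs, with a Spearman rho of 0.461 for CxH vs. CxWT and 0.486 for MH vs. MWT. These points are genes that share the same libraries, so rho is a description.

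**Figure D2:**
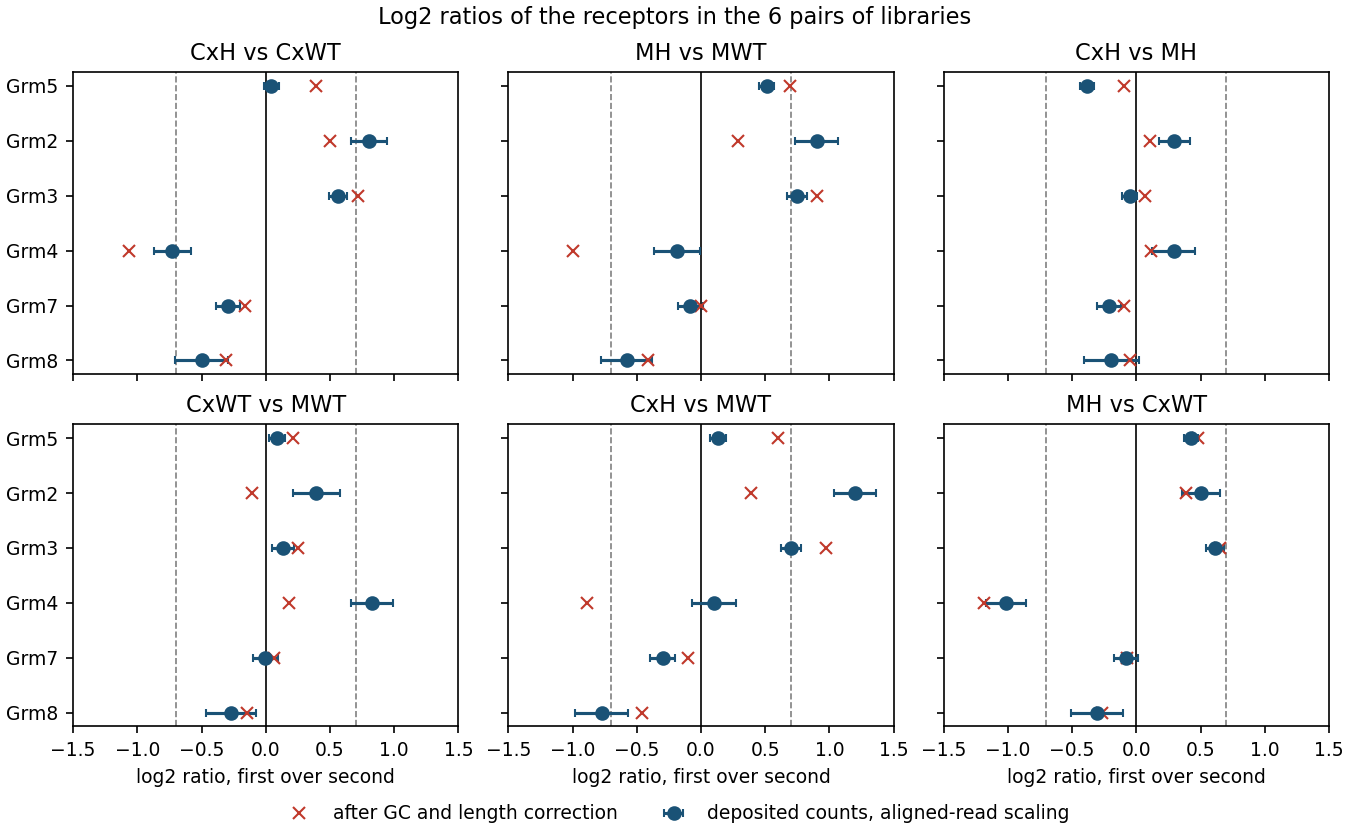
Log2 ratio of each receptor gene in the 6 pairs of libraries, as counted (with the 95% counting interval) and after the correction for transcript GC content and length, with dotted lines at the fold of 0.7. Grm2 and Grm3 lie above 0 for CxH vs. CxWT and MH vs. MWT, Grm4, Grm7 and Grm8 below, and the correction moves Grm4 in MH vs. MWT from -0.19 to -0.999.

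For CxH vs. CxWT, 2 of the 6 genes passed the fold, Grm2 higher and Grm4 lower. Of all 12700 genes 21.2% passed it, 9.59% higher and 11.6% lower. The median log2 ratio of the members was -0.13 against -0.093 over all genes, and their median size was 0.53 against 0.34. For MH vs. MWT, 2 genes passed, Grm2 and Grm3, both higher, while 25.2% of all genes passed, 12.4% higher and 12.9% lower. The median of the members was 0.21 against -0.066 over all genes, and their median size 0.55 against 0.40. With 6 members, counts of 2 are near what these backgrounds give. With the GC and length correction the number stayed at 2 in both pairs but the genes were then Grm3 and Grm4.

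CxH vs. MH and CxWT vs. MWT compare the areas within a genotype label, but in these pairs the cortical markers were alike, with median log2 ratios of 0.12 and 0.15, and Ids was not, at -1.44 and 1.19. Other markers differed too. The midbrain and diencephalon markers had medians of -0.32 and 0.31, with 6 of 16 lower and 1 higher past the fold for CxH vs. MH, some of them at 7 reads or fewer in both libraries, and 3 higher for CxWT vs. MWT. The 12 microglial markers had medians of 0.87 and -0.54, and Gfap was at 1.25 and -0.99. The part of these cells in the receptor values was not tested. None of the 6 genes passed the fold for CxH vs. MH, where 3.89% of all genes did. The ratios ran from -0.38 ± 0.027 for Grm5 to 0.30 ± 0.062 for Grm2, and with the GC and length correction they narrowed to between -0.098 and 0.11. For CxWT vs. MWT, Grm4 passed with a log2 ratio of 0.83 ± 0.082, beside 7.99% of all genes, and the corrected value was 0.18. Grm2 followed with 0.40 ± 0.093, or -0.11 corrected. Grm3 at 0.14 ± 0.043, Grm5 at 0.087 ± 0.033 and Grm7 at -0.0026 ± 0.050 differed little, and Grm8 was at -0.27 ± 0.099. The sign of Grm5 in this pair turned when column totals were used for scaling.

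The remaining pairs differ in both labels, with Ids at -0.20 for CxH vs. MWT and 0.058 for MH vs. CxWT, and median log2 ratios of the midbrain and diencephalon markers of -4.98 and -4.38. For CxH vs. MWT, Grm2 passed the fold at 1.196 ± 0.083, its largest ratio among the 6 pairs, and Grm8 passed at -0.77 ± 0.10, while 30.9% of all genes passed. Grm3 was at 0.698 ± 0.039, and passed with TMM and DESeq2 size factors at 0.742 and 0.736. Grm7 was at -0.30 ± 0.051, Grm5 at 0.13 ± 0.032 and Grm4 at 0.10 ± 0.088. The corrected values were 0.39 for Grm2, -0.46 for Grm8, 0.97 for Grm3, 0.60 for Grm5, -0.10 for Grm7 and -0.89 for Grm4, whose sign turned. For MH vs. CxWT, where 15.6% of all genes passed, only Grm4 did, at -1.02 ± 0.079. Grm3 was at 0.61 ± 0.036, and passed at 0.72 with TMM or DESeq2 size factors. Grm2 was at 0.51 ± 0.075, Grm5 at 0.43 ± 0.029, Grm8 at -0.31 ± 0.10 and Grm7 at -0.082 ± 0.047. Each of the 6 pairs shares a library with 4 of the others, so a value that recurs in such pairs is not independent evidence.

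The balance of the coupling classes differed between libraries. Summed over its members as RPM per kb, group II made 53.5% of the 6 genes in CxH and 48.6% in MH, against 39.6% in CxWT and 38.4% in MWT. Group III made 21.6% in CxH and 21.5% in MH, against 33.0% in CxWT and 33.1% in MWT. Grm5, alone in group I, made 24.9%, 30.0%, 27.4% and 28.5% in CxH, MH, CxWT and MWT. The 6 genes together reached 76.2 RPM per kb in CxH and 82.6 in MH, and 67.2 in CxWT and 60.9 in MWT. Shares of a whole are tied to each other, so the levels are given as well. Group II summed to 40.8 RPM per kb in CxH and 40.1 in MH, against 26.6 in CxWT and 23.4 in MWT. Group III summed to 16.4 in CxH and 17.7 in MH, against 22.2 in CxWT and 20.2 in MWT, a smaller difference than that of group II. These sums and shares are as counted, without the GC and length correction, and rest on the length of the longest protein-coding transcript. Grm3 made 31.2 of the 40.8 RPM per kb of group II in CxH. CxH and MH are also the libraries with more cortical markers, whose part in the balance was not tested.

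**Figure D3:**
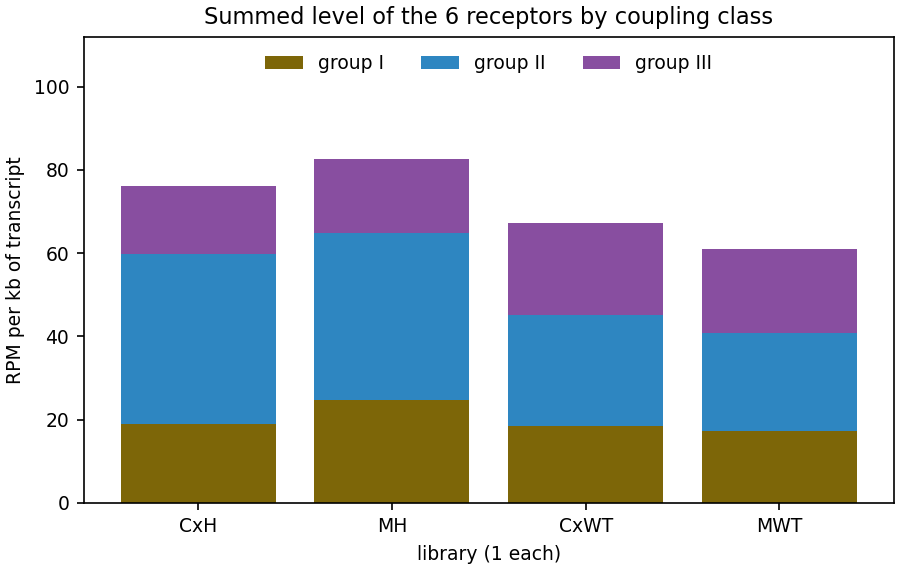
Summed level of the 6 receptor genes in each library, in RPM per kilobase of transcript, stacked by coupling class (group I is Grm5, group II Grm2 and Grm3, group III Grm4, Grm7 and Grm8). Group II is larger in CxH and MH, at 40.8 and 40.1 RPM per kb, than in CxWT and MWT, at 26.6 and 23.4.

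Ratios of reads within a library need no scaling between libraries. There were 6.54 Grm3 reads per Grm4 read in CxH (95% interval 6.02 to 7.10), 2.68 in CxWT (2.48 to 2.88), 8.29 in MH (7.57 to 9.08) and 4.33 in MWT (3.91 to 4.79). There were 12.6 Grm3 reads per Grm8 read in CxH and 11.4 in MH, with overlapping intervals, against 6.04 in CxWT and 4.55 in MWT. Within group II, Grm3 had 3.49 reads per Grm2 read in CxH against 4.11 in CxWT, and 4.44 in MH against 4.93 in MWT, where the intervals of MH and MWT overlapped. These ratios take no account of base composition. With the GC and length correction the log2 ratio of Grm3 was above that of Grm2 in both pairs, at 0.72 against 0.50 for CxH vs. CxWT and 0.91 against 0.29 for MH vs. MWT, the reverse of the order as counted, and the distance of Grm3 from Grm4 was wider in both. Grm5 had 1.19 reads per Grm3 read in CxH against 1.70 in CxWT, and 1.49 in MH against 1.76 in MWT, where CxWT and MWT overlapped.

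The downstream genes of group I included more that passed the fold upward than downward. Of 13 group I coupling genes (Gq subunits, phospholipase C beta, IP3 receptors, protein kinase C and others), 5 were higher and 2 lower for CxH vs. CxWT and 5 higher and 1 lower for MH vs. MWT, with medians of 0.62 and 0.36. The medians were 0.33 and 0.067 with the GC and length correction, at the same counts. Over all genes, 9.59% were higher and 11.6% lower for CxH vs. CxWT, and 12.4% and 12.9% for MH vs. MWT. This is the background for every list below as counted. With the correction, of 12231 genes with a protein-coding transcript, 1016 were higher and 1107 lower for CxH vs. CxWT, and 1027 and 1230 for MH vs. MWT. Itpr1, an IP3 receptor of the endoplasmic reticulum, had 517 RPM in CxH against 181 in CxWT, and 476 in MH against 172 in MWT, log2 ratios of 1.52 and 1.47. Prkcb, a calcium-dependent protein kinase C, had 944, 317, 888 and 344 RPM, with log2 ratios of 1.57 and 1.37. Plcb4, a phospholipase C abundant in thalamus and cerebellum, went the other way, with 16.9, 52.7, 21.6 and 44.6 RPM and log2 ratios of -1.64 and -1.04. Both Itpr1 and Prkcb are common in cortical excitatory neurons, whose markers were likewise higher in CxH and MH than in CxWT and MWT, and the part of these cells in the list was not tested.

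All 9 group I scaffold genes, which tie the receptor to the postsynaptic density, lay above 0 in both pairs as counted. For CxH vs. CxWT 5 of the 9 passed the fold and for MH vs. MWT 8 did, none lower, with medians of 0.996 and 1.04. With the correction 5 and 4 passed, with medians of 0.75 and 0.54, and not all lay above 0 for CxH vs. CxWT. The cortical excitatory markers were likewise higher in CxH and MH, and their part in this list was not tested. The list was chosen with earlier results of these data known. Homer1, which binds Grm5 protein directly, had 81.9 RPM in CxH against 29.1 in CxWT, and 90.4 in MH against 27.9 in MWT, with log2 ratios of 1.49 and 1.70. Shank1, a large scaffold protein, had 416, 189, 323 and 74.7 RPM and log2 ratios of 1.14 and 2.11 (0.75 and 1.06 corrected), and its relative Shank2 122, 61.4, 125 and 33.6 RPM and log2 ratios of 0.996 and 1.90. The receptor itself was at 0.044 and 0.51 in these pairs as counted, and at 0.39 and 0.69 corrected.

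Genes of group II and group III coupling include the Gi/o subunits, the adenylate cyclases and the channels these receptors act on. Of the 25 of 26 in the table, 4 were higher and 3 lower past the fold for CxH vs. CxWT, and 9 higher and 2 lower for MH vs. MWT, with medians of 0.21 and 0.44. The correction left 3 higher and 2 lower, and 4 higher and 2 lower, with medians of 0.055 and 0.15. Adcy1, a calcium-stimulated adenylate cyclase, had 1038 RPM in CxH against 382 in CxWT, and 966 in MH against 289.9 in MWT, with log2 ratios of 1.44 and 1.74. Gng7, a G protein gamma subunit abundant in striatum, had log2 ratios of 1.58 and 1.08. Adcy7, another adenylate cyclase, was at -1.47 and -1.39, with 7.79, 21.7, 8.59 and 22.6 RPM. The striatal markers were higher in the same libraries as Gng7, and their part in its values was not tested.

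Of 12 genes for proteins that bind or desensitise the receptors, 2 passed the fold in each pair and none was lower, with medians of 0.18 and 0.23, or 0.24 and 0.091 corrected. Grasp (tamalin), which links group I receptors to trafficking proteins, had 43.7 RPM in CxH against 7.97 in CxWT, and 35.3 in MH against 6.98 in MWT, with log2 ratios of 2.45 and 2.34. Rgs4, which speeds up GTP hydrolysis by Gq and Gi/o, had log2 ratios of 0.75 and 0.56, or 1.03 and 0.88 corrected, then past the fold in both pairs. Elfn2, a transsynaptic partner of group III receptors, had 0.60 and 1.16, or 0.29 and 0.45 after correction, so that its call for MH vs. MWT was lost.

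The supply and removal of the ligands gave the largest ratios of the 7 pathway lists. Of the 13 of 14 genes in the table, 2 were higher and 6 lower for CxH vs. CxWT and 1 higher and 6 lower for MH vs. MWT, with medians of -0.15 and -0.14. The correction turned the sign of these medians, to 0.21 and 0.020, and left 5 lower in each pair. Slc17a7 (VGLUT1), the vesicular glutamate transporter of cortical neurons, had 1359 RPM in CxH against 152 in CxWT, and 1240 in MH against 108 in MWT, with log2 ratios of 3.16 and 3.52. Slc17a6 (VGLUT2), its counterpart in thalamus and midbrain, had 10.5, 208, 21.8 and 205 RPM and log2 ratios of -4.30 and -3.23. Both are also area markers. Rimkla makes N-acetylaspartylglutamate (NAAG), the peptide that activates Grm3, and had 13.4, 45.5, 13.9 and 48.0 RPM, with log2 ratios of -1.76 and -1.79. Folh1, the peptidase that breaks NAAG down, was singled out after its values were seen, at -1.45 and -1.42. Grm3, the receptor of this peptide, lay on the other side of 0 in both pairs. The area markers differed in these pairs too. Their part in these values, and any relation among Rimkla, Folh1 and Grm3, was not tested.

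The ionotropic glutamate receptors were compared as the most similar genes of the same ligand. Of the 6 of 7 NMDA receptor subunits in the table, 2 were higher and 2 lower for CxH vs. CxWT and 4 higher and 1 lower for MH vs. MWT, with medians of 0.33 and 1.13. With the correction 2 were higher and 2 lower in each pair, with medians of 0.0062 and 0.36. Grin2a had log2 ratios of 1.34 and 1.77 and Grin2b of 1.27 and 1.52, both subunits of forebrain receptors, whereas Grin2d, more common in midbrain and diencephalon, had -1.55 and -0.71, or -1.95 and -1.86 corrected. Of 9 AMPA and kainate receptor subunits, 1 was higher and 2 lower for CxH vs. CxWT and 2 were higher for MH vs. MWT, with medians of 0.14 and 0.25. With the correction 2 were higher and 1 lower, and 2 higher, with medians of 0.060 and 0.14. Grik5 had log2 ratios of 1.01 and 1.68, or 0.66 and 0.84 corrected. Grik1 had log2 ratios of -1.27 and -0.68 and Gria4 of -0.85 and -0.66. A difference between the receptor families was not tested.

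**Figure D4:**
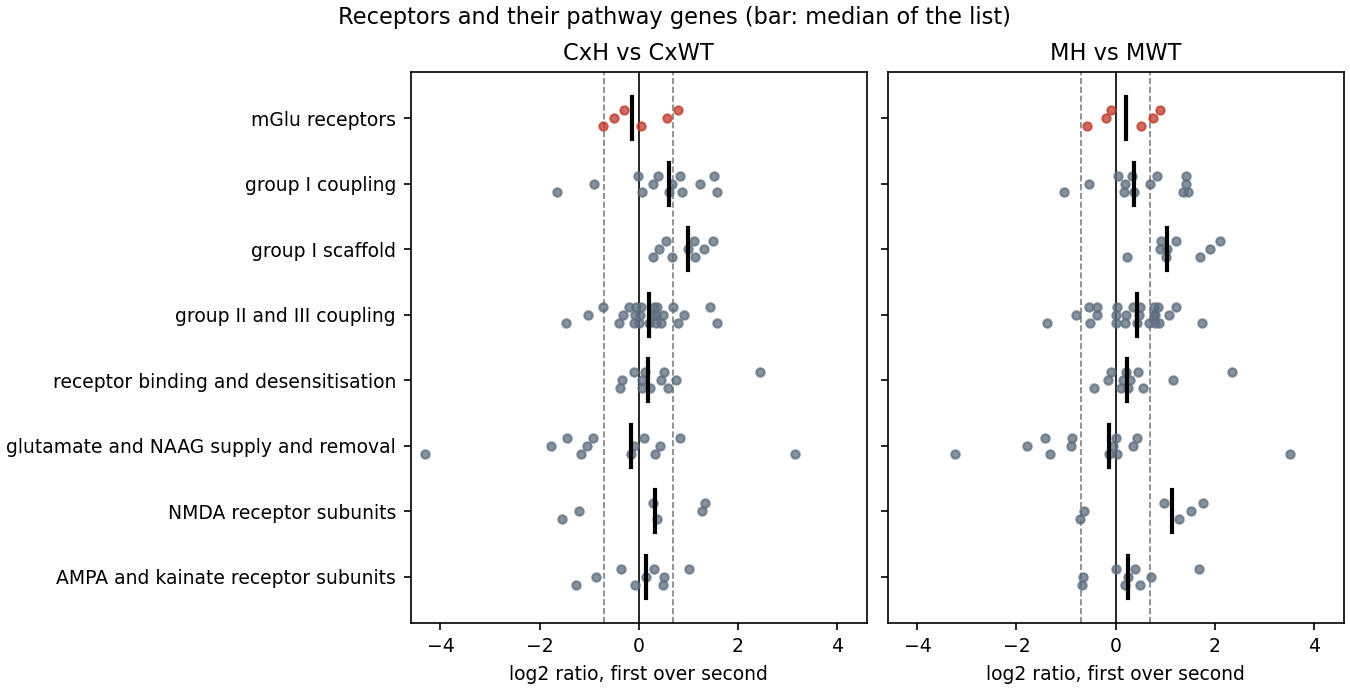
Log2 ratios of the genes in each pathway list for CxH vs. CxWT and MH vs. MWT, 1 point per gene with the list median marked and dotted lines at the fold of 0.7. The group I scaffold genes all lie above 0, and the list of glutamate and NAAG supply and removal spreads from -4.30 to 3.52.

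The genes whose pattern over the 4 libraries lay nearest to each receptor were found among 11009 others that reached 100 reads in all libraries, by the distance between log2 RPM values centred on each gene's mean. For Grm2 these were Mrc2 at 0.042, Wwc1 at 0.045 and Camk2b at 0.049. For Grm3 they were 4933404O12Rik at 0.035, Ldb2 at 0.044 and Robo2 at 0.052. Grm4 had the most distant neighbours, Adamts2 at 0.085, Samd14 at 0.12 and Zfp503 at 0.13. Grm5 was nearest to Tbc1d1 at 0.035, Lyst at 0.038 and Hcfc2 at 0.046. The neighbours of Grm7 were Bach1 at 0.015, Akap11 at 0.016 and Btbd7 at 0.018, and those of Grm8 were Snx5 at 0.017, Eif4e at 0.024 and Cpq at 0.028. The pattern of Grm2 can be read in Camk2b, the beta subunit of a postsynaptic calcium-dependent kinase, with 19341 reads in CxH against 9789 in CxWT, and 15709 in MH against 6633 in MWT. A likeness over 4 libraries is a description.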

How the data were processed

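The deposited table gives, per the authors' methods, raw read counts per gene for the 4 libraries. SOLiD 3 reads were aligned with PASS to NCBIM37 (mm9), without gaps, allowing 2 mismatches and taking the best hit. Only reads on a single gene were counted, and a gene was kept when over 50% of its length was covered. The gene annotation is not given in the sources used here. A coverage filter leaves out low genes, and near-identical genes lose reads that match several places.

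RPM are counts per 1000000 aligned reads of the library. Log2 ratios carry the counting standard error, and intervals are 95% exact Clopper-Pearson intervals. PCR copies were not marked, so both cover counting error only. With 1 library per condition no test was made, and a log2 ratio of 0.7 or more in size counts as past the fold, also over all genes. Of 12700 genes, 12690 had a symbol and 12422 matched GENCODE vM1. The GC and length correction was a cubic fit over the 10706 genes that reached 100 reads in all libraries and had a matched transcript. Scaling by column totals, TMM (edgeR 4.0.16) and DESeq2 1.42.0 size factors (R 4.3.3), an added count of 0.5, a filter of 100 reads and a log2 ratio of 1 were the alternatives. Python 3.11.15 with pandas 2.3.3 and scipy 1.17.1 was used, and the code was tested on simulated data.

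Genes named are the 6 members, Ids, the 3 nearest genes of each member, at most 3 genes of each pathway list with the largest log2 ratio past 0.7 (100 reads or more in either library), and at most 3 of the most abundant genes of a marker list. Folh1, Slc1a3, Aldh1l1 and Sox9 were added after their values were seen. The members and lists were chosen with earlier results of these data known. Promoter windows came from RefSeq (GRCm38.p6). Protein sequences were not used here, and 0 columns belonged to samples of another series.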

Additional observations from a re-analysis of the deposited data

Results flagged for a closer look

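Ids, the gene targeted in the knock-out, had opposite signs under the labels of the areas. Its log2 ratio was -1.39 for CxH vs. CxWT and 1.24 for MH vs. MWT, and between the area labels it was -1.44 for CxH vs. MH and 1.19 for CxWT vs. MWT. With 1 library on each side the difference between these ratios was not tested.

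Grm5 also had opposite signs between the area labels under the 2 genotype labels, with a log2 ratio of -0.38 for CxH vs. MH and 0.087 for CxWT vs. MWT, and this difference was not tested. Grm5 was highest in the library labelled MH, at 171 RPM. After the correction for GC content and length the values were -0.093 and 0.21. With column totals as the scaling they were -0.43 and -0.0045, no longer of opposite sign.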

How the results depend on the processing

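No paired analysis was possible within any of the 6 comparisons because each has 1 library on a side, and for the same reason no replicate was left out. A fit over all 4 libraries with genotype and area labels as separate terms was not run. In no pair did a member that passed the fold change sign under any alternative. Among the 36 ratios of the members, 25 moved beyond their 95% counting interval with the GC and length correction, 5 with TMM, 6 with DESeq2 size factors, 6 with column totals and 0 with 0.5 added. TMM and DESeq2 size factors each left 1 member past the fold for CxH vs. CxWT and gave 2 for MH vs. CxWT and 3 for CxH vs. MWT, column totals left 1 for MH vs. MWT, and the correction left 0 for CxWT vs. MWT. At a log2 ratio of 1, 0 members passed for CxH vs. CxWT, MH vs. MWT and CxWT vs. MWT, and 1 for CxH vs. MWT.

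Over all genes, a log2 ratio of 1 was passed by 1417 for CxH vs. CxWT, 1662 for MH vs. MWT, 166 for CxH vs. MH, 321 for CxWT vs. MWT, 1974 for CxH vs. MWT and 1080 for MH vs. CxWT, against 2689, 3204, 494, 1015, 3921 and 1986 at 0.7. The correction left 321 for CxH vs. MH, 406 for CxWT vs. MWT and 2027 for CxH vs. MWT, and the filter of 100 reads left 312 for CxH vs. MH. The share of passing genes that were higher went from 45.3% to 56.0% with TMM and 55.4% with DESeq2 for CxH vs. CxWT, from 42.0% to 54.1% and 54.2% for MH vs. CxWT, from 71.3% to 54.4% with column totals and 53.2% with the correction for CxWT vs. MWT, and from 50.9% to 39.2% with column totals for CxH vs. MWT. For MH vs. MWT that share went from 49.1% to 56.0% with TMM, 56.2% with DESeq2 and 42.1% with column totals. The median of all genes moved by over 0.1 in 2 pairs, by -0.11 with column totals for CxH vs. MWT and by 0.11 with TMM and DESeq2 for MH vs. CxWT. Signs of small member ratios turned for Grm5 (CxWT vs. MWT) and Grm4 (CxH vs. MWT) with column totals, for Grm7 (MH vs. CxWT) with TMM and DESeq2, and, with the correction, for Grm3 (CxH vs. MH), Grm2 and Grm7 (CxWT vs. MWT) and Grm4 (CxH vs. MWT). The cause of these shifts was not tested. Read depth does not limit the members, which had at least 337 reads in every library, but the number of libraries does.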

Other observations

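The 7 of 10 cerebellar markers in the table summed to 60.0 RPM in CxH against 158 in CxWT, and 64.8 in MH against 134 in MWT. Oligodendrocyte markers (10 genes) summed to 4905, 9316, 5103 and 7433 RPM in the same order of libraries, and the 10 markers of GABAergic interneurons to 904, 1008, 804 and 1039 RPM. The 12 microglial markers were highest in CxH, at 678 RPM in CxH against 345 in CxWT, and 407 in MH against 510.0 in MWT. The part of these cells in the receptor values was not tested.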
